A study of Mus musculus with 12 samples.

Results

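The genes described here encode the molecules of the mouse major histocompatibility complex (MHC) that carry peptides to the cell surface: the class I heavy chains H2-K1, H2-D1 and H2-T23, their shared light chain B2m, and the class II chains H2-Aa, H2-Ab1 and H2-Eb1. They are 7 of the 23235 gene entries of the expression table. They were picked by symbol, after H2-K1 and H2-T23 had been seen to be higher and H2-Aa lower in the cytoplasm of Mtr4-null oocytes, so their difference between the genotypes in the cytoplasm is given below as a description, with no test. Of the 7, 5 reached 1 FPKM (a level of sequenced fragments scaled to transcript length and library size) in at least 3 of the 12 libraries and entered the tests. H2-Ab1 and H2-Eb1 did not.

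Oocytes of wild-type (WT) mice and oocytes lacking Mtr4, the helicase of the nuclear RNA exosome (Skiv2l2 in the table), were taken on day 14, and nucleus and cytoplasm were parted by micromanipulation. The 4 groups, WT nucleus, WT cytoplasm, Mtr4-null nucleus and Mtr4-null cytoplasm, have 3 libraries each, made from rRNA-depleted total RNA of 10 nuclei or 10 cytoplasms. The series' text speaks of duplicates while the labels number 3 libraries a group, and neither says whether the libraries come from separate mice, so a p-value speaks only of the spread among these libraries, technical as that may be. The sources used here do not give the mouse strain, nor the allele and the driver of the deletion.

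A class I molecule is one membrane-anchored heavy chain held together with B2m. It shows peptides cut from proteins of the cytosol to CD8+ T cells, and most nucleated cells make it. H2-K1 and H2-D1 are the classical heavy chains, and H2-T23 gives the non-classical Qa-1, which shows leader peptides of other class I chains to receptors of natural killer cells. A class II molecule pairs an alpha chain such as H2-Aa with a beta chain such as H2-Ab1, needs the invariant chain Cd74 for its transport, and is made mainly by dendritic cells, macrophages and B cells. Classical heavy chains differ in sequence between mouse strains more than most genes do. In the ovary, class II molecules are known from resident macrophages and dendritic cells.

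The start regions of these genes hold some of the same short control motifs. They are printed because members that share control elements are found below at very different levels. Of the 7 members, 6 have an entry among the RefSeq promoter windows of build GRCm38.p6, each holding 250 bases before and 50 after the annotated start, and 5 are given 5′ to 3′ along the gene. The windows are chr17:34000298-34000597 on the minus strand for H2-K1 (the first of 2 listed starts), chr17:35262844-35263143 on the plus strand for H2-D1, chr17:36032652-36032951 on the minus strand for H2-T23, chr2:122147437-122147736 on the plus strand for B2m and chr17:34287774-34288073 on the minus strand for H2-Aa. Capitals mark 4 motifs searched on both strands, which may overlap: GGGATTCCC, the kappaB site of the class I enhancer; AANNGAAA, the core of an interferon response element; TGACG, the core of a CRE as in the X2 box; and CCAAT, the Y box.
H2-K1: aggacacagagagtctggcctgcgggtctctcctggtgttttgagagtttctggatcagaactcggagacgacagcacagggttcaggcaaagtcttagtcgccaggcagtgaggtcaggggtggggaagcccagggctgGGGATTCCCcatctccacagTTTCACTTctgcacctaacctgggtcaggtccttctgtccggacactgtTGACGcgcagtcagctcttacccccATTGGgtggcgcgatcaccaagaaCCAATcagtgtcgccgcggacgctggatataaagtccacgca
H2-D1: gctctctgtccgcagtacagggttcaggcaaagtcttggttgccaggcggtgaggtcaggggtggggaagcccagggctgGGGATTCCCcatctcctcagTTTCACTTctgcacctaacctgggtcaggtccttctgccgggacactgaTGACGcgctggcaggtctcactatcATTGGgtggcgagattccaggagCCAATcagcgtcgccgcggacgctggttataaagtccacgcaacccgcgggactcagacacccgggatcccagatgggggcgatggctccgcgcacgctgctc
H2-T23: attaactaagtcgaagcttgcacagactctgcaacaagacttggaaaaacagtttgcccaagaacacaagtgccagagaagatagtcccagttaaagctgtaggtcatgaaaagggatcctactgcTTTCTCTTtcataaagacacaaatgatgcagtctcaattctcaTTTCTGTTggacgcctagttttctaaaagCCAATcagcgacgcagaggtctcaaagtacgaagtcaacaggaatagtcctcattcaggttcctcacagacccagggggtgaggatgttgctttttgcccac
B2m: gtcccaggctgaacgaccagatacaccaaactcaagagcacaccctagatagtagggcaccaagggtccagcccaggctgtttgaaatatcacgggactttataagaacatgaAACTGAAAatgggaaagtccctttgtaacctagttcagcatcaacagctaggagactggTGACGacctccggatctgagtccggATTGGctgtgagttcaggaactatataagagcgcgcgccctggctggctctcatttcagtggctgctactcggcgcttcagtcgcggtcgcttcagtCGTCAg
H2-Aa: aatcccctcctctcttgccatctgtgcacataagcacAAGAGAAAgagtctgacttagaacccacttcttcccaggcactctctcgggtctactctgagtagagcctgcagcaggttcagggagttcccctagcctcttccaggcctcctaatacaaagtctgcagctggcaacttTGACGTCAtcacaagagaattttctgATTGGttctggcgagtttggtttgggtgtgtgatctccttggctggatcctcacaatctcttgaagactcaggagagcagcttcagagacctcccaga

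The windows of H2-K1 and H2-D1 were 88.3% identical over 239 aligned bases. Both held 1 kappaB match, 1 interferon core, 1 CRE core and 2 CCAAT boxes. The kappaB letters stood in 100 of 27025 promoter windows of the same length (0.37%), those of H2-K1 and H2-D1 among them and those of the other members not. H2-T23 held 2 interferon cores and 1 CCAAT box, and B2m and H2-Aa each held 1 interferon core, 2 CRE cores and 1 CCAAT box. In H2-Aa the 2 CRE cores overlap on opposite strands and form 1 whole CRE. The interferon core, the CRE core and the CCAAT box are common, in 24.2%, 21.0% and 37.9% of all windows. A match in these letters is a description of the window, not of a bound factor.

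By Skiv2l2, the libraries matched their labels with 1 exception. Skiv2l2 stood at 19.4 to 21.1 FPKM in the WT cytoplasms and at 0.315 to 1.04 in the Mtr4-null cytoplasms, and at 2.45 to 6.057 in the WT nuclei. The nuclei labelled Mtr4-null had 7.98, 0.182 and 1.12 FPKM in replicates 1, 2 and 3, so the first of them carried more Skiv2l2 than every WT nucleus and is called here nucleus 1 labelled Mtr4-null. The small Cajal body RNA Scarna2 took 58.0% to 81.7% of all FPKM in the nuclei. Read depth is unknown. It was judged from genes above 0 and under 0.3 FPKM in both a library and WT cytoplasm replicate 1, by the most frequent ratio of the paired values. For nuclei this rests on 319 to 688 genes. On this measure 5 of the 6 nuclei had 0.125 to 0.177 times the depth of WT cytoplasm replicate 1. Mtr4-null nucleus replicate 3 had 0.406 times, and the cytoplasms 0.536 to 1.52 times, so low values in nuclei rest on few reads. The 13 oocyte markers summed to between 12144 and 17729 FPKM in the cytoplasms. They summed to 3850 to 7634 FPKM in the WT nuclei and to 3509 to 12847 in those labelled Mtr4-null. The highest nuclear sum was that of Mtr4-null nucleus replicate 3, which lay at the level of the cytoplasms. In this library Scarna2 took 58.0% of all FPKM, against 70.2% to 81.7% in the other nuclei. A smaller Scarna2 share leaves more of the FPKM to all other genes. Whether cytoplasm entered this library, or how far the Scarna2 share raised the sum, was not tested.

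H2-K1 was the heavy chain with the highest level in the Mtr4-null cytoplasm. The WT cytoplasms had 4.84, 6.66 and 6.21 FPKM, and the Mtr4-null cytoplasms 28.7, 41.3 and 42.6. The 2 groups lay far apart, at means of 5.91 ± 0.951 and 37.5 ± 7.66 FPKM (SD, n = 3), or a difference of 2.47 on the log2(FPKM + 1) scale used throughout for differences. H2-K1 stood between the 63.8 and 67.9 percentiles of all genes in the WT cytoplasms and between 85.4 and 91.1 in the Mtr4-null cytoplasms.

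The nuclei were not used to choose the genes. The WT nuclei had 5.22, 6.69 and 4.26 FPKM of H2-K1. The nuclei labelled Mtr4-null had 6.18, 27.8 and 41.4. Replicates 2 and 3 lay above every WT nucleus, while nucleus 1 labelled Mtr4-null, the one with Skiv2l2 at 7.98 FPKM, lay within the WT range. Over all 3 the difference was 1.71 ± 0.50 (SE) and missed the threshold in limma's test (adjusted p = 0.083). Without nucleus 1 labelled Mtr4-null it was 2.47, with an adjusted p of 0.0011 in limma, in a fit that called 1321 genes in place of 298. Left out in turn, single libraries moved the difference between 1.19 and 2.47. Replicate 3 is the nucleus with oocyte markers at the level of the cytoplasms and with the lowest Scarna2 share. How much of its H2-K1 level was due to cytoplasm or to that share was not tested. Over 21 alternatives the difference ran from 0.66 to 2.47, with adjusted p from 0.0011 to 0.53.

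**Figure D1:**
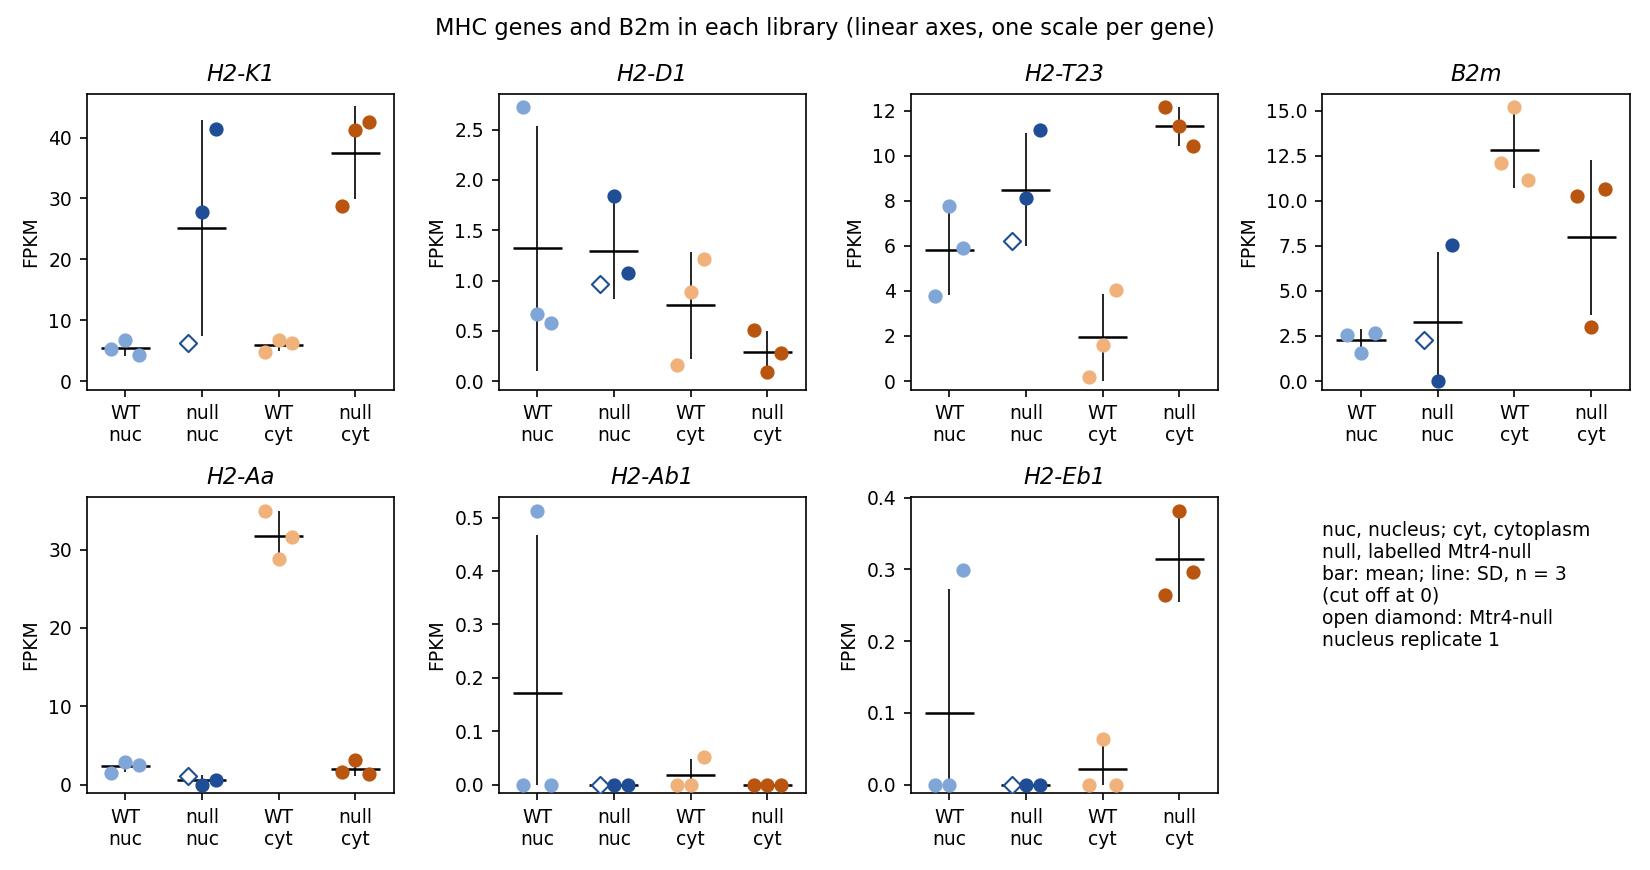
FPKM of the 7 genes in each of the 12 libraries, by group on the x axis, with the mean (bar) and SD (line, n = 3). H2-K1 is at 27.8 and 41.4 FPKM in 2 nuclei labelled Mtr4-null and at 6.18 in nucleus 1 labelled Mtr4-null (open diamond), and H2-Aa is at 28.8 to 35.0 FPKM only in the WT cytoplasms.

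H2-T23 had 0.196, 1.59 and 4.02 FPKM in the WT cytoplasms. The Mtr4-null cytoplasms had 12.1, 11.3 and 10.44. The WT libraries spread over a wide range, whereas the Mtr4-null libraries were close together. These groups did not overlap, as in 43.9% of all genes. The means were 1.94 ± 1.94 and 11.3 ± 0.852 FPKM (SD, n = 3), a difference of 2.30. In the nuclei, WT libraries had 3.76, 7.75 and 5.91 FPKM and those labelled Mtr4-null 6.23, 8.11 and 11.2. These ranges overlapped, and the difference of 0.49 ± 0.46 did not pass limma's test (adjusted p = 0.63).

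H2-D1, the other classical heavy chain, stayed low. The WT cytoplasms had 0.163, 0.883 and 1.21 FPKM and the Mtr4-null cytoplasms 0.507, 0.0913 and 0.284, with overlapping ranges and a difference of -0.40. The WT nuclei had 2.73, 0.663 and 0.573 FPKM and those labelled Mtr4-null 0.970, 1.84 and 1.07. These ranges overlapped too. The nuclear difference was 0.08 ± 0.37 (limma, adjusted p = 0.93) and took the other sign when single libraries were left out. H2-K1 and H2-D1, with start regions that are nearly alike, thus had means of 37.5 and 0.294 FPKM in the Mtr4-null cytoplasm.

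B2m, the light chain that class I heavy chains share, was highest in the cytoplasm. The WT cytoplasms had 12.1, 15.2 and 11.2 FPKM and the WT nuclei 2.56, 1.55 and 2.68. The groups did not overlap, as in 73.5% of all genes. B2m was 2.09 ± 0.62 lower in the nucleus (limma, adjusted p = 0.011), in a comparison in which 57.1% of all genes tested were called and the median gene was 0.90 lower. The call was lost with a pseudocount of 0.1 (-2.48, adjusted p = 0.084 in limma) and with median-of-ratios scaling (-1.16, adjusted p = 0.16 in limma).

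Between the genotypes B2m did not follow H2-K1. The Mtr4-null cytoplasms had 10.29, 2.99 and 10.63 FPKM, all below the WT cytoplasms, and the mean difference was -0.77, or -0.26 without the library at 2.99. Of all genes tested, 43.9% had cytoplasm groups that did not overlap. The nuclei labelled Mtr4-null had 2.27, 0 and 7.54 FPKM, on both sides of the WT values. The nuclear difference was -0.09 ± 0.62 (limma, adjusted p = 0.96). The ratio of H2-K1 to B2m in FPKM, which is set per length, was 0.399, 0.439 and 0.556 in the WT cytoplasms and 2.79, 13.8 and 4.004 in the Mtr4-null cytoplasms. In the nuclei it was 2.04, 4.31 and 1.59 in WT, and 2.72 and 5.49 in replicates 1 and 3 labelled Mtr4-null, B2m being listed at 0 in the other. H2-K1 thus exceeded B2m in the WT nuclei too, and the cytoplasmic ratios rest on the H2-K1 values that chose the gene.

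H2-Aa, the class II alpha chain, was the member that differed most. The WT cytoplasms had 35.0, 28.8 and 31.5 FPKM, and the Mtr4-null cytoplasms 1.65, 3.07 and 1.38. The means were 31.8 ± 3.08 and 2.03 ± 0.910 FPKM (SD, n = 3), a difference of -3.47. H2-Aa stood between the 86.0 and 88.1 percentiles of all genes in the WT cytoplasms and between 53.2 and 59.9 in the Mtr4-null cytoplasms. In the WT nuclei it was far lower than in the WT cytoplasms, at 1.45, 2.93 and 2.54 FPKM.

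The nuclei labelled Mtr4-null had 1.15, 0 and 0.634 FPKM of H2-Aa. All 3 lay below the WT nuclei, as the nuclear groups of 12.9% of all genes tested did not overlap. The nuclear difference was -1.09 ± 0.38 and did not pass limma's test (adjusted p = 0.13). With nucleus 1 labelled Mtr4-null left out it was -1.34 (limma, adjusted p = 0.041), and with median-of-ratios scaling -1.46 (limma, adjusted p = 0.040). In all, 0 of the 5 members tested were called between the nuclei, against 2.26% of all genes. Of the 5, 2 had an unadjusted p below 0.05. The share of all genes below that p was not computed, here or for the lists below, so such counts have no background.

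The partners of H2-Aa were low. H2-Ab1, the beta chain that pairs with it, was at 0.513 FPKM in 1 WT nucleus and at 0.0521 in 1 WT cytoplasm and was listed at 0 in the other libraries. H2-Eb1, the beta chain of the other class II molecule, read 0.265, 0.382 and 0.297 FPKM in the cytoplasms of the Mtr4-null group. In the WT cytoplasms it was at 0, 0.0637 and 0, and in 1 WT nucleus at 0.2995. Cd74, the invariant chain, was at 0.0505 FPKM in 1 WT cytoplasm and listed at 0 in the other cytoplasms of both genotypes, and in the nuclei it was at 1.23, 0.419 and 0 in WT and at 0.972, 0 and 0 in those labelled Mtr4-null. Ciita, the coactivator on which class II transcription depends, was listed at 0 in every library but 1 WT nucleus, at 0.208 FPKM. H2-Aa stood at 28.8 to 35.0 FPKM in the WT cytoplasms, in which H2-Ab1 and Cd74 were at or near 0.

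**Figure D2:**
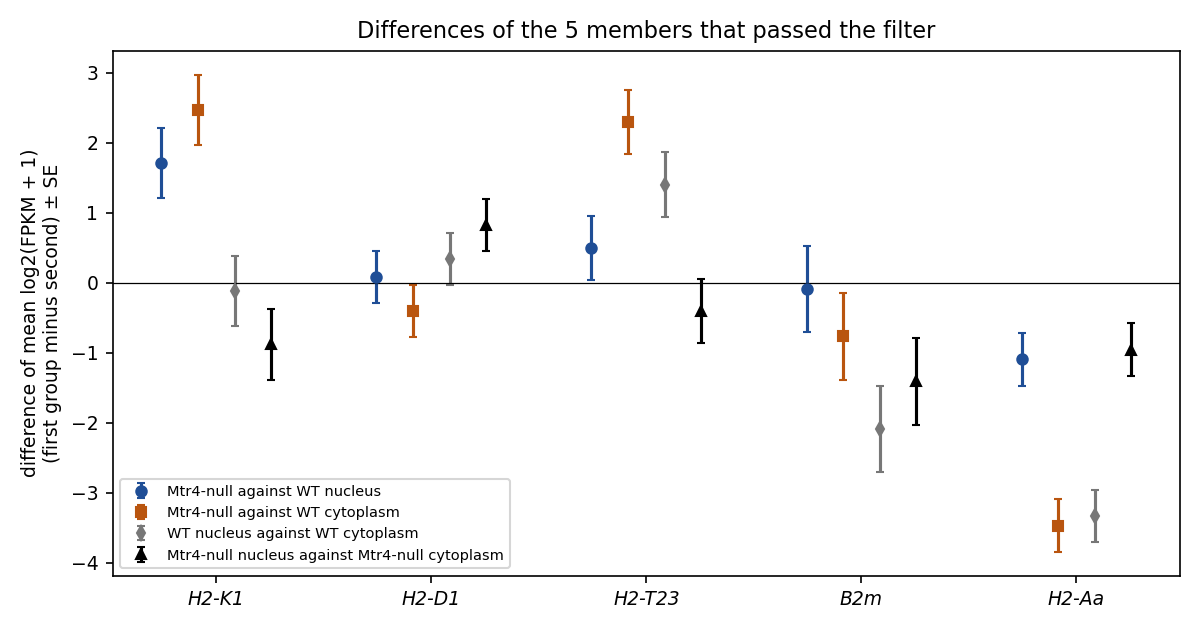
Differences of mean log2(FPKM + 1) with their SE for the 5 members tested, in the 4 comparisons, first group minus second. The cytoplasm differences between genotypes (squares) are those that chose the genes: 2.47 for H2-K1, 2.30 for H2-T23 and -3.47 for H2-Aa, beside -0.40 for H2-D1 and -0.77 for B2m.

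Where the transcripts lay differed among the members. In WT oocytes H2-Aa was 3.33 lower and H2-K1 0.12 lower in the nucleus than in the cytoplasm, while H2-T23 was 1.40 higher, and these 3 values are given with no test since the WT cytoplasms served to choose the genes. H2-D1 was 0.34 ± 0.37 higher in the WT nucleus (limma, adjusted p = 0.45). In Mtr4-null oocytes, nucleus less cytoplasm was -0.88 for H2-K1, -0.40 for H2-T23 and -0.96 for H2-Aa, again with no test, and 0.82 ± 0.37 for H2-D1 (limma, adjusted p = 0.086). B2m was at -1.41 ± 0.62 (limma, adjusted p = 0.078), where 32.2% of all genes were called, 4.08% higher and 28.1% lower in the nucleus, and 41.7% had groups that did not overlap. Left out in turn, single libraries moved the Mtr4-null value of H2-K1 between -1.40 and -0.12, the latter without nucleus 1 labelled Mtr4-null, and that of B2m between -2.16 and -0.61. With median-of-ratios scaling H2-K1 was at 0.85 in WT and 0.025 in Mtr4-null oocytes, and H2-T23 at 0.46 in Mtr4-null oocytes, all of the other sign. The comparisons share libraries.

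Of 30 other class I heavy chains listed, 27 are in the table and 6 could be tested. Between the cytoplasms 0 of the 6 were called by limma and 0 had an unadjusted p below 0.05, where 1.88% of all genes were called (1.17% higher and 0.714% lower). Their median difference was 0.14, against 0.00 over all genes. H2-T10, the one with the highest cytoplasmic level, had 9.003, 7.50 and 8.28 FPKM in WT and 12.3, 14.3 and 9.28 in Mtr4-null cytoplasms. The groups of H2-T10 did not overlap, as in 43.9% of all genes, and its difference of 0.47 ± 0.38 did not pass limma's test (adjusted p = 0.77). H2-M5 had 1.05, 2.75 and 2.24 FPKM and 0.937, 1.01 and 1.35.

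In the nuclei 2 of the 6 fell in the Mtr4-null group and 0 rose, where 1.75% of all genes were called lower and 0.517% higher. H2-Q4, a Qa-region heavy chain, had 22.1, 7.67 and 14.4 FPKM in WT nuclei and 4.99, 2.48 and 3.10 in those labelled Mtr4-null. It was 1.72 ± 0.37 lower (limma, adjusted p = 0.027). The call was lost in 12 of 21 alternatives, among them those without WT nucleus replicate 1 (-1.39) or replicate 3 (-1.68). H2-T24 fell from 1.69, 2.31 and 2.44 to 0, 0.285 and 0.554 FPKM, a change of -1.31 ± 0.26 (limma, adjusted p = 0.020) that lost its call in 2 of 17 alternatives, the pseudocount of 0.1 and the fit of the nuclei alone. The median of the 6 was -1.003, against 0.04 over all genes. H2-T24 reached 1 FPKM only in the WT nuclei, so it entered the test only through the group where it is high. The filter thus favoured its fall and its part in the count and the median.

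In WT oocytes 5 of the 6 rose in the nucleus and 0 fell, where 12% of all genes were called higher and 45.0% lower, and 73.5% had groups that did not overlap. The exception, H2-T10, was at -0.81 (limma, adjusted p = 0.079). H2-Q4, H2-Q8, H2-T3 and H2-T24 reached 1 FPKM only in nuclei. They could pass the filter only through the compartment in which they are high, so the count of 5 of 6 is partly set by the filter. H2-Q4 led with a mean of 14.7 FPKM in the nucleus and 0.292 in the cytoplasm, 3.495 ± 0.37 higher (limma, adjusted p = 1.8e-05). H2-M5 was 2.77 higher, H2-T24 1.63 and H2-Q8 1.41. With median-of-ratios scaling 4 rose and with quantile normalization 3, and 0 fell under either. Of all 13157 genes tested, 2559 and 1658 rose and 1228 and 1604 fell under these settings. In Mtr4-null oocytes H2-Q4 (1.92) and H2-M5 (2.01) were called higher in the nucleus and H2-T10 (-1.17) lower, a call that was lost in 12 of 21 alternatives. The 7 class I-like genes outside the complex all fell short of the filter. Cd1d1 reached 2.13 FPKM in 1 WT cytoplasm and Hfe 0.722 FPKM in 1 nucleus labelled Mtr4-null.

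Among the other class II genes, 2 of the 7 in the table could be tested. H2-Ob, a chain of the DM modulator H2-O, had 1.69, 2.47 and 1.07 FPKM in WT nuclei, against 0.201, 0 and 0 in those labelled Mtr4-null, 1.34 ± 0.26 lower (limma, adjusted p = 0.016). The call was lost in 3 of 17 alternatives: quantile normalization, library weights and the fit of the nuclei alone. It was listed at 0 in all but 1 of the cytoplasms. H2-Ob reached 1 FPKM only in the WT nuclei, so it entered the test only through the group where it is high. The filter thus favoured its fall, and its low nuclear values rest on few reads. Its partner H2-Oa had 8.43, 3.09 and 4.45 FPKM in the WT cytoplasms and 11.3, 14.2 and 13.5 in the Mtr4-null cytoplasms. These ranges did not overlap, as in 43.9% of all genes, and the difference of 1.23 ± 0.69 did not pass limma's test (adjusted p = 0.54). H2-Ea-ps was read in 2 WT nuclei, at 2.17 and 8.34 FPKM, and in no other library.

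The machinery that loads class I peptides gave no calls between the genotypes in the unweighted fit of all 4 groups. Fitting the compared groups alone, or with library weights, called more of all genes between the cytoplasms and fewer between the nuclei. Calls under these settings are not given for this list, for class II loading or for transcriptional control. Of the 16 such genes found, 11 were tested, and 0 were called by limma in the nucleus (3 with an unadjusted p below 0.05) and 0 in the cytoplasm (2 with an unadjusted p below 0.05), where 2.26% and 1.88% of all genes were called. The median cytoplasmic difference was 0.45, against 0.00 over all genes. The 2 were chosen for mention after their values were seen: Psmb10, a subunit of the immunoproteasome, had 0.136, 0.131 and 0.0966 FPKM in WT and 1.70, 2.36 and 1.22 in Mtr4-null cytoplasms (1.28 ± 0.39; limma, adjusted p = 0.12). Tapbp, tapasin, averaged 2.201 and 4.52 FPKM (0.78 ± 0.34; limma, adjusted p = 0.33). Neither pair of groups overlapped, nor did those of Tap2, a subunit of the peptide pump (2.43 and 5.02 FPKM). Cytoplasm groups did not overlap for 5 of the 11, which is near the 43.9% of all genes. Calr, a chaperone of empty heavy chains, had 262, 214 and 202 FPKM in WT and 246, 207 and 186 in Mtr4-null cytoplasms. Hspa5, the main chaperone of the endoplasmic reticulum, had 111, 88.6 and 96.3 FPKM and 120, 140 and 142. Tap1, the other subunit of the pump, was at 0 in the WT cytoplasms and at no more than 0.170 FPKM in the Mtr4-null cytoplasms.

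Tapbpl, a tapasin-like editor of class I peptides, was read almost only in nuclei. It reached 1 FPKM only there and so entered the test through the compartment in which it is high. Its mean was 7.16 FPKM in the WT nucleus and 0.00918 in the WT cytoplasm, a difference of 2.98 ± 0.30 (limma, adjusted p = 1.1e-05). In Mtr4-null oocytes the means were 3.37 and 0.430 FPKM (1.62 ± 0.30; limma, adjusted p = 0.0077). Over the list 3 genes rose and 5 fell in the WT nucleus against the cytoplasm, and 1 rose and 5 fell in Mtr4-null oocytes, where 45.0% and 28.1% of all genes were called lower and 12% and 4.08% higher. The 5 of 11 lower in WT are at the share of all genes. Calr (-1.58), Canx (-1.44) and Psme3 (-1.57) were among those lower in the WT nucleus, beside a median of -0.90 over all genes. With median-of-ratios scaling, which sets that median near 0, they were at -0.44, -0.33 and -0.44 and 0 genes of the list were called lower in either genotype, while Tapbpl stayed higher. Of all 13157 genes tested, that scaling called 1228 lower in WT and 33 in Mtr4-null oocytes.

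Class II loading genes gave 0 calls by limma among 5 tested in both comparisons of genotypes (1 unadjusted p below 0.05 in the nucleus and 0 in the cytoplasm), where 2.26% and 1.88% of all genes were called. The lysosomal proteases Ctsd and Ctsb, which act on proteins far beyond antigen processing, were the most abundant. Ctsd had 75.3, 60.7 and 75.2 FPKM in WT and 73.6, 46.2 and 66.9 in Mtr4-null cytoplasms. Ctsb had 30.7, 22.8 and 26.8 FPKM and 32.3, 34.6 and 31.2. In WT oocytes 4 of the 5 fell in the nucleus, beside 45.0% of all genes, led by Ifi30, a lysosomal thiol reductase (-2.05 ± 0.49; limma, adjusted p = 0.0036). With median-of-ratios scaling 1 of the 5 was called lower, beside 1228 of all 13157 genes tested.

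Of 25 genes of the transcriptional control of the MHC, among them interferon receptors and kinases, 20 were tested. In both comparisons of genotypes 0 were called by limma, with 3 unadjusted p below 0.05 in the nucleus and 2 in the cytoplasm, and medians of -0.12 and -0.06, where 2.26% and 1.88% of all genes were called. Nlrc5, the coactivator of class I genes, did not exceed 0.0645 FPKM in any library. Irf1, an interferon response factor, had 101, 96.9 and 98.1 FPKM in WT and 125, 67.0 and 94.3 in Mtr4-null cytoplasms. Nfya, the CCAAT box factor, had 147, 188 and 185 FPKM and 151, 107 and 150. Both ranges overlapped. In WT oocytes 1 of the 20 rose in the nucleus (Ifnar1, 1.95) and 11 fell, with Irf1 at -2.15, Atf1 at -1.78 and Jak1 at -1.56. In Mtr4-null oocytes 0 rose and 6 fell. These counts stand beside 45.0% of all genes called lower in the WT nucleus and 28.1% in the Mtr4-null nucleus. With median-of-ratios scaling 4 rose and 3 fell in WT and 2 rose and 0 fell in Mtr4-null oocytes, and between the genotypes 3 fell in the nucleus and 1 in the cytoplasm. Of all 13157 genes tested, that scaling called 2559 higher and 1228 lower in WT, and 614 higher and 33 lower in Mtr4-null oocytes. Between the genotypes it called 929 lower in the nucleus and 85 in the cytoplasm.

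**Figure D3:**
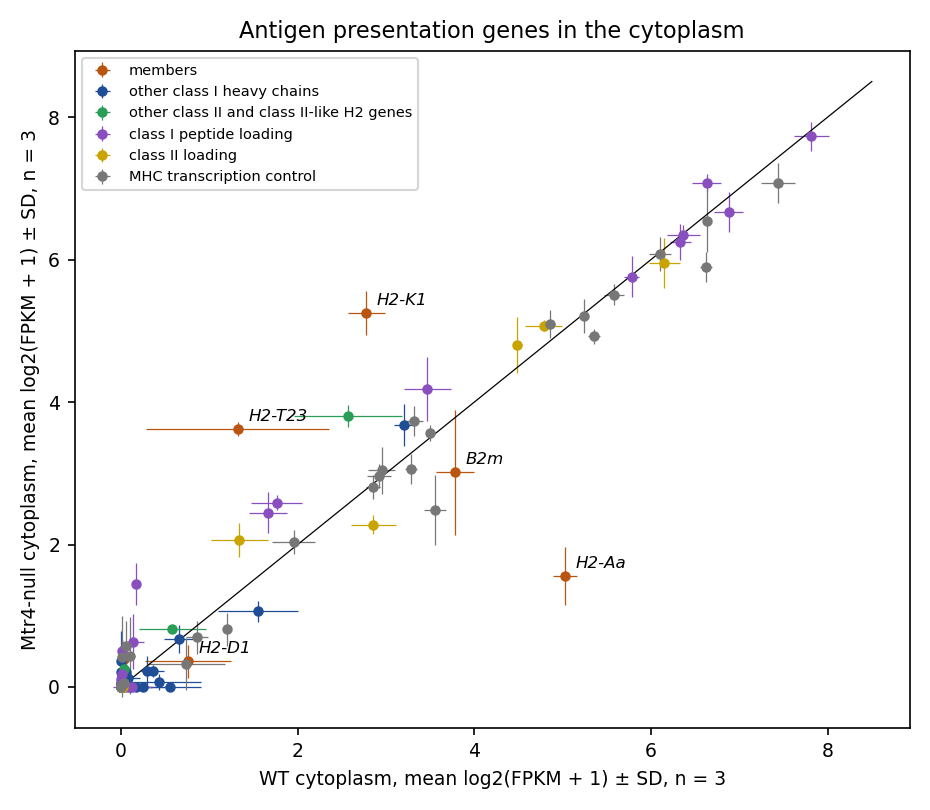
Mean log2(FPKM + 1) of the members and of the pathway genes in the table, WT cytoplasm on the x axis and Mtr4-null cytoplasm on the y axis, with SD (n = 3) and the line of equal values. H2-K1, H2-T23 and H2-Aa lie far from the line. Of the genes that are no members 0 were called by limma in this comparison, in the unweighted fit of all 4 groups.

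Markers of the cells in which class II genes are strongest were low in both genotypes. The 25 leukocyte markers summed to 14.0 to 29.7 FPKM in the WT cytoplasms and 19.0 to 23.1 in the Mtr4-null cytoplasms, and to 17.4 to 25.6 and 15.0 to 15.9 in the nuclei. Of them 14 were listed at 0 in all 3 WT cytoplasms and 12 in all 3 Mtr4-null cytoplasms, with Emr1 and Tyrobp of macrophages and Cd3e of T cells at 0 in all 12 libraries. Ms4a1, a B cell gene, made up most of the sum in WT cytoplasms, at 8.47, 17.999 and 19.8 FPKM, and read 6.14, 3.77 and 6.92 in those of the Mtr4-null group. C1qb, a complement gene of macrophages, was at 4.07, 7.67 and 6.61 FPKM in WT and 13.8, 12.6 and 10.27 in Mtr4-null cytoplasms, while C1qc was at 0 in both. In bulk samples, fewer cells of a type and less RNA per cell cannot be told apart.

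The granulosa cell markers, for the cells that surround the oocyte, summed to 235 to 270 FPKM over 28 genes in the WT cytoplasms and 197 to 269 in the Mtr4-null cytoplasms. In the WT cytoplasms Serpine2 (88.3 to 99.6 FPKM), Foxo1 (74.9 to 96.4), Nr5a2 (26.6 to 30.6) and Esr2 (21.8 to 25.6) made up most of the sum, while the defining genes Foxl2, Amh and Fshr did not exceed 0.121, 0.192 and 0.836 FPKM. The theca and stroma markers summed to 5.22 to 8.67 FPKM in the WT and 7.57 to 13.3 in the Mtr4-null cytoplasms. In the nuclei they summed to 6.52 to 41.2 FPKM in WT and 6.54 to 10.26 in those labelled Mtr4-null. The highest sum was that of WT nucleus replicate 2, with Col1a1, Col1a2 and Col3a1 at 18.4, 8.12 and 6.25 FPKM. In the other libraries these collagen genes did not exceed 0.502, 0.0521 and 0.0341 FPKM. Whether stromal RNA entered this nucleus library was not tested. The blood and endothelium markers summed to 16.97 to 25.4 FPKM in the WT and 13.2 to 23.03 in the Mtr4-null cytoplasms. Globins were at 0 in every library. None of the 5 marker lists had a gene called by limma between the genotypes in the unweighted fit of all 4 groups. Unadjusted p lay below 0.05 for 0 to 2 genes a list and comparison. With median-of-ratios scaling 2 theca and stroma markers and 1 leukocyte marker were called lower in the Mtr4-null nucleus. That scaling called 929 of all 13157 genes tested lower there. The part that other cells have in the levels of the members was not tested.

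Heavy chain transcripts resemble one another, which bears on how reads are shared out among them. In the GENCODE M21 transcripts of build GRCm38, 6.87% of the 50-base stretches of H2-K1 also occur in transcripts of other genes, most often H2-D1 (5.43%). The share was 13.9% for H2-D1 and 29.8% for H2-T23, of which H2-T-ps alone held 12.9%. Over 150 bases, the read length of the labels, the shares were 0%, 1.54% and 0.831%. B2m, H2-Aa, H2-Ab1 and H2-Eb1 shared no stretch of either length. Values of H2-K1, H2-D1 and H2-T23 are uncertain where stretches are shared, since the rule by which the authors divided shared reads is not stated in the labels or the processing notes. Shares for the other heavy chains were not computed. The transcripts are those of the reference strain, and how other alleles map was not tested.

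The neighbours of the members on chromosome 17 were examined as well, in a comparison added after the data were seen. The table holds 186 entries of the region that runs from H2-K2 to H2-M2 in the RefSeq order, and 86 of them that are no members were tested. In the cytoplasm 1 rose and 1 fell in the Mtr4-null group (2.33%), beside 1.88% of all genes and 3.55% of the 564 genes tested on chromosome 17 outside the region. The median of the 86 was 0.11. In the nucleus 0 rose and 5 fell (5.81%), beside 2.26% of all genes and 3.55% of chromosome 17 outside: Btnl3, Col11a2, H2-Ob, H2-Q4 and H2-T24. The calls of Col11a2 and Btnl3 were lost in 15 and 4 of 20 alternatives. H2-Ob and H2-T24 reached 1 FPKM only in the WT nuclei, so the filter favoured their fall.

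The genes called in the cytoplasm were Mog and Trim15, both at the end of the region where H2-T23 lies. Mog, a gene best known from myelin, had 0.677, 1.30 and 0.856 FPKM in WT and 12.7, 8.47 and 13.8 in Mtr4-null cytoplasms, 2.69 ± 0.35 higher (limma, adjusted p = 0.0012, and called in all 21 alternatives). The WT nuclei had 2.50, 3.71 and 3.21 FPKM of it, and 4.28, 6.75 and 8.27 were read in those labelled Mtr4-null. Trim15, a tripartite motif gene, had 39.6, 42.2 and 41.6 FPKM in WT and 4.98, 4.23 and 4.64 in Mtr4-null cytoplasms, 2.91 ± 0.62 lower (limma, adjusted p = 0.024). Its call was lost in 10 of 21 alternatives, with an adjusted p of up to 0.13 in limma, though the difference stayed between -3.13 and -2.60. In nucleus 1 labelled Mtr4-null Trim15 was at 11.9 FPKM, above the WT nuclei (8.67, 2.25 and 5.97), and in the other two at 0.358 and 2.32.

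**Figure D4:**
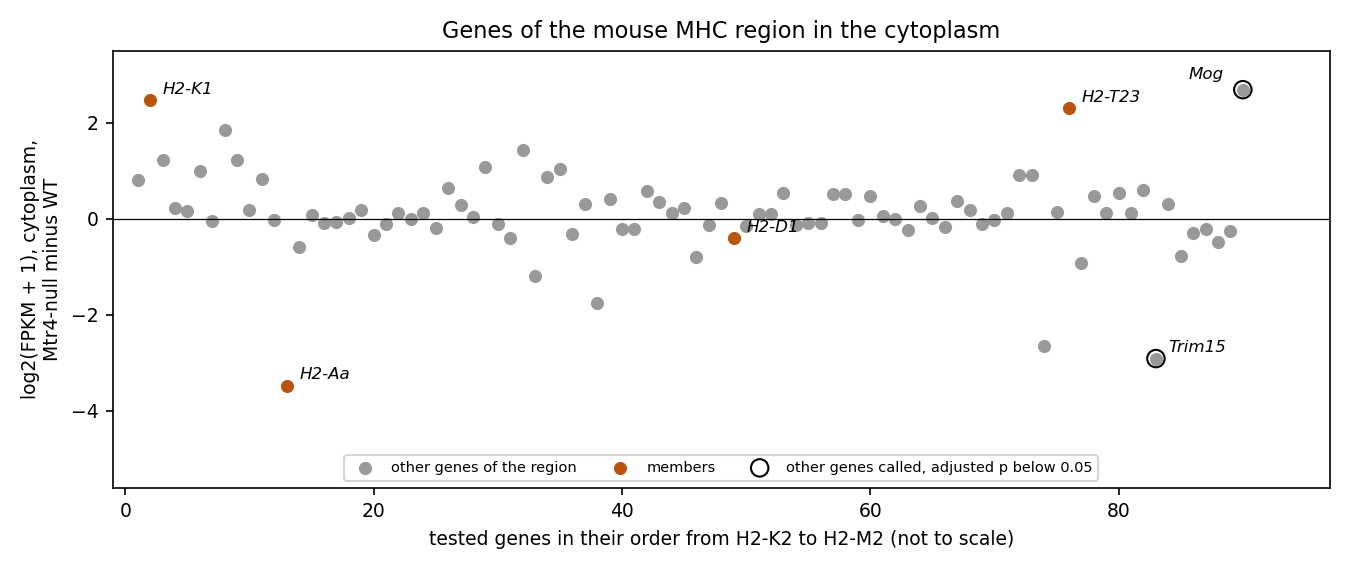
Differences between Mtr4-null and WT cytoplasm on the log2(FPKM + 1) scale for the genes tested between H2-K2 and H2-M2, in their order on chromosome 17, with the members in orange. Genes next to the members lie on both sides of 0; Mog (2.69) and Trim15 (-2.91), circled, are the 2 that passed the test.

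The genes with the most similar pattern over the 12 libraries were named by Pearson's r of log2(FPKM + 1), a measure that libraries of 1 group share in. For H2-K1 these were Mt1 (r = 0.99), a metallothionein, Zfp618 (0.98) and Mrvi1 (0.98). Mt1 averaged 0 and 0.0968 FPKM in WT nucleus and cytoplasm and 128 and 261 in the Mtr4-null groups. For H2-T23 they were Phf19 (0.89), Mog (0.88) and LOC629393 (0.86). For H2-Aa they were Got1 (0.97), Commd8 (0.95) and Gtf2e1 (0.95), and Got1, an aspartate aminotransferase, averaged 24.7 FPKM in the WT cytoplasm and 9.72 in the Mtr4-null cytoplasm. For B2m they were Rpl24, Pcbp2 and Ankrd17, each at 0.99. Among the members themselves r was 0.70 between H2-K1 and H2-T23, -0.78 between H2-T23 and H2-Aa, 0.65 between B2m and H2-Aa, and -0.01 between H2-K1 and B2m.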

How the data were processed

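Total RNA of 12 libraries was sequenced, 3 in each of 4 groups. The deposited table gives FPKM per gene as the authors computed it, with TopHat2 2.1.1, Cufflinks 2.2.1 and build mm9 named in the submitters' processing notes. The annotation and the handling of shared reads are not given in these notes. All 12 columns were matched to samples by their names. Values were taken as log2(FPKM + 1), genes reaching 1 FPKM in 3 or more libraries were kept (13157 of 23235), and 1 mean per group was fitted with limma 3.58.1 (R 4.3.3, trended prior). The 4 comparisons were two-sided, with Benjamini-Hochberg adjustment over all genes of a comparison and a threshold of 0.05. The share of all genes with an unadjusted p below 0.05 was not computed. The fit was tested on simulated data in which each gene had the same spread in all 12 libraries. That test could not show what an unequal spread of nuclei and cytoplasms does to the calls. The members and gene lists were chosen with earlier results of these data known. From each list other than the members, up to 4 called genes per comparison are named by smallest adjusted p, or else the 2 with the highest mean; Tap1, Tap2, Tapbp, Psmb10 (between the genotypes), Nlrc5, Ciita, Cd74, Ms4a1, C1qb, Mog and Trim15 and the marker genes and region genes named lie outside this rule and were chosen after their values were seen. Whether a genotype effect differed between nucleus and cytoplasm was not tested. Alternatives changed the pseudocount, filter, scaling, fit and libraries. Promoter windows and gene order come from RefSeq tables (GRCm38.p6), where 23010 entries matched by name. Shared stretches were counted in GENCODE M21 transcripts with Biopython 1.88 and python 3.11.15.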

Additional observations from a re-analysis of the deposited data

How the results depend on the processing

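The number of genes called moved with the settings. Between the nuclei (298) it was 102 with a pseudocount of 0.1, 599 with no filter, 26 with a filter at 5 FPKM, 1271 with median-of-ratios scaling, 1140 with quantile normalization, 5 when the groups were fitted alone, 153 with library weights and 3934 without Mtr4-null nucleus replicates 1 and 3. Leaving out single libraries gave 14 (without WT nucleus replicate 1) to 1321 (without nucleus 1 labelled Mtr4-null). Between the cytoplasms (248) the counts in the same order were 140, 139, 147, 219, 104, 3050, 4802 and 1388, and 53 (without WT cytoplasm replicate 2) to 594 (without Mtr4-null nucleus replicate 3) without single libraries. For WT nucleus against cytoplasm (7509, of which 21.1% higher) median-of-ratios scaling gave 3787 (67.6% higher) and quantile normalization 3262 (50.8% higher), and single libraries 5634 to 8552. For the Mtr4-null compartments (4230, 12.7% higher) no filter gave 1201, these scalings 647 (94.9% higher) and 487 (84.0% higher), the groups alone 123, library weights 8342, the fit without replicates 1 and 3 8471, and single libraries 173 (without Mtr4-null cytoplasm replicate 1) to 8500 (without Mtr4-null nucleus replicate 3). Median-of-ratios scaling moved the median difference of all genes from -0.90 to 0.02 in WT and from -0.82 to -0.04 in Mtr4-null oocytes, and from 0.04 to -0.11 between the nuclei; between the nuclei quantile normalization moved the share of higher calls from 22.8% to 43.7%. The cause of these shifts was not tested.

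Signs of members turned as follows. Between the nuclei H2-D1 (0.08) was -0.24 with library weights, -0.10 and -0.14 without WT nucleus replicates 2 and 3, and -0.08 without Mtr4-null nucleus replicate 2, with 0.49 as its highest value without a single library. B2m (-0.09) was 0.019 with quantile normalization and ran from -0.83 to 0.71 without single libraries. Between the WT compartments H2-K1 (-0.12) was 0.85 and 0.41 with the 2 scalings and ran from -0.26 to 0.011 without single libraries, and H2-D1 (0.34) ran from -0.065 to 0.56. Between the Mtr4-null compartments the 2 scalings gave 0.025 and 0.056 for H2-K1 and 0.46 and 0.40 for H2-T23. In the cytoplasm H2-K1 stayed between 2.16 and 2.65, H2-T23 between 1.77 and 3.16 and H2-Aa between -3.98 and -3.04 over 21 alternatives each. The nuclear value of B2m reached -1.69 (adjusted p = 0.038 in limma) without Mtr4-null nucleus replicates 1 and 3.

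The labels do not say that nucleus and cytoplasm libraries with the same number are a pair, and the number was not used as a pairing. The deviations of such libraries from their group means had correlations of -0.13 to -0.012 in WT oocytes. In Mtr4-null oocytes these were 0.058 to 0.30. Correlations of libraries with different numbers are not given, so these values do not decide whether the libraries were paired. With the replicate block 377, 328, 7916 and 5535 genes were called in the 4 comparisons, and of the members' tests it changed the call of B2m between the Mtr4-null compartments (-1.41, adjusted p = 0.044 in limma). In that comparison B2m also passed with library weights, without Mtr4-null nucleus replicate 3 and without replicates 1 and 3 (-3.01, adjusted p = 0.00071 in limma).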
